A study of Mus musculus with 10 samples.

Results

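The genes described here are 10 markers of ventricular stress and of the fetal gene program of heart muscle: Nppb, Myh7, Myh6, Acta1, Ankrd1, Ankrd23, Rcan1, Ccn2, Mef2c and Gata4. They were taken by name from a count table of 78298 genes, each matched 1 Ensembl identifier in the GENCODE annotation of GRCm39, and all 10 were among the 16700 genes that passed the filter on low counts. RNA was sequenced in bulk from hearts of female mice on a C57BL/6J background, of which 5 libraries carry the label wild type and 5 that of a p38δ germline deletion. Every mouse had received 1 intraperitoneal injection of doxorubicin at 30 mg/kg, and hearts were taken 72 h later. Doxorubicin is an anthracycline cancer drug that injures heart muscle, and p38δ, encoded by Mapk13, is a stress-activated protein kinase. Because all 10 libraries came from treated mice, its own effect was not measured, and the deletion was in every tissue rather than in heart muscle alone. The age of the mice is not given in the sources used here, and the labels do not say whether a library was 1 heart or a pool.

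Adult ventricular muscle of the mouse runs mainly on the fast α-myosin heavy chain (Myh6), while the slow β-myosin heavy chain (Myh7) predominates before birth. Under load or injury, ventricles are known to take up genes of the fetal heart again, among them Myh7, skeletal α-actin (Acta1) and the natriuretic peptides, of which B-type natriuretic peptide (Nppb) is a standard marker of wall stress. Ankrd1 and Ankrd23 encode ankyrin repeat proteins that bind titin and respond to stretch, Rcan1 encodes a feedback inhibitor of the phosphatase calcineurin, and Ccn2 encodes a matrix-associated growth factor also made by fibroblasts and endothelium. Gata4 and Mef2c encode transcription factors of heart muscle that bind promoters of several of these genes, and Mef2c protein is a known substrate of p38 kinases.

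Library totals ranged from 21403189 to 40627138 counts. Levels are given in CPM, the usual depth-scaled count after TMM factors, which correct for differences in library composition. Markers of ventricular muscle were abundant throughout: their sum without Myh6 was between 7916 CPM in wild-type-labelled library 1 and 21523 CPM in knockout-labelled library 4, with 13675 to 19479 CPM in the other 8. Both of these libraries were set apart because of earlier results of these data. Library 1 labelled wild type held 1554 CPM of 12 atrial, 787 CPM of 11 fast skeletal muscle, 1751 CPM of 10 fibroblast and 899.9 CPM of 10 airway and alveolar markers, against at most 388, 35.3, 1053 and 78.1 CPM in any other library. The p53 target Cdkn1a lies on chromosome 17 (29309936 to 29319701), close to the deleted gene Mapk13 (28987747 to 28999207). Library 4 labelled knockout held 13.7 CPM of Cdkn1a, a gene picked after its values were seen, against 65.9 to 105 CPM elsewhere. Its values for members, among them high Nppb and Myh6, were also known when it was set apart, and its ventricular marker sum was near that of the next library, so values without it depend in part on the outcome and are a description. Mapk13 had 292, 5, 2, 1 and 4 counts in the wild-type-labelled libraries and 12, 10, 10, 15 and 9 in the knockout-labelled ones, that is 0.270 to 0.487 CPM in the latter against 0.0481 to 0.128 CPM in wild-type-labelled libraries 2 to 5 and 6.41 CPM in library 1. The deleted gene thus ran against the labels in 4 of the 5 wild-type-labelled libraries, at counts of at most 15 there and in the knockout-labelled ones, and every direction below is that of the labels. Values for each of the 10 genes and each pathway list are also given without libraries 1 (wild-type-labelled) and 4 (knockout-labelled), which leaves 4 against 4.

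Table entries for the promoters of 7 of the 10 genes were found in RefSeq (GRCm38.p6), and the 250 bases before the start that matches the canonical transcript were searched on both strands. The searched letters were CATTCC (the MCAT element bound by TEAD factors), the GATA factor letters AGATAA as well as TGATAA together with AGATAG as well as TGATAG, then GGAAA (the core of NFAT sites) and the CArG box of serum response factor. CATTCC was present in 6 of the 7, against 12.6% of 32851 promoters of the same length, a description that says nothing of binding. The promoters of the natriuretic peptide, the actin and both ankyrin repeat genes are shown because these are the members read most often as markers of wall stress and stretch, with matches in capitals.
Nppb, chr4:147985650-147985899, plus strand: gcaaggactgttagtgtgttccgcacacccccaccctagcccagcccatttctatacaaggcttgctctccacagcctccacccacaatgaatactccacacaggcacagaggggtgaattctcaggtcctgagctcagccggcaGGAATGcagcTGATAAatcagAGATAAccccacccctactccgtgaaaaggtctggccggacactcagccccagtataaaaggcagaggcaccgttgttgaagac
Acta1, chr8:123894776-123895025, minus strand: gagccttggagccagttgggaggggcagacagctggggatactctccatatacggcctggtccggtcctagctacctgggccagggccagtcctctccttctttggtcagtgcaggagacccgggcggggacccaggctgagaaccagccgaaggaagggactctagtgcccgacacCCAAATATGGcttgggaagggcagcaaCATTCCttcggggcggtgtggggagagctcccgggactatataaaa
Ankrd1, chr19:36119845-36120094, minus strand: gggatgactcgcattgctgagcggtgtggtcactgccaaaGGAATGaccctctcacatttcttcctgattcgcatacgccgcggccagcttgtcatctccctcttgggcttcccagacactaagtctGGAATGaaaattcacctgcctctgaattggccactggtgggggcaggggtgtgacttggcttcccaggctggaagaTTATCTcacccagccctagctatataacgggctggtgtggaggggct
Ankrd23, chr1:36535740-36535989, minus strand: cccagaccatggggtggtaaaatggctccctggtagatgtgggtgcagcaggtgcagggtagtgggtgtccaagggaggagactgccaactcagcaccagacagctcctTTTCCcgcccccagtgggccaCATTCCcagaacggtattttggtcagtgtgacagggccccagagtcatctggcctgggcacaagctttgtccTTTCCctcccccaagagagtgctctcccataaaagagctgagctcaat

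In Nppb the MCAT element (on the minus strand, read here as GGAATG) ended 100 bases before the start and was followed by a pair of GATA matches, and no other searched motif was present. Acta1 was the member with a CArG box, a motif found in 1.47% of all promoters, and its MCAT element lay 46 to 41 bases before the start. Ankrd1 had 2 MCAT matches and 1 GATA match (as TTATCT). Ankrd23 had 1 MCAT match and 2 matches to GGAAA (as TTTCC), letters present in 55.6% of all promoters. Myh6 and Myh7 each had 1 MCAT match, 206 and 201 bases before the start. The Rcan1 window, which belongs to the start inside the gene, had 3 GGAAA matches and no MCAT match. GATA letters were in 3 of the 7 windows and in 26.5% of all. No matches overlapped between motifs.

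By level per kilobase of canonical transcript, the order of the medians over the 10 libraries was Myh6 (1178 CPM per kb), Myh7 (1016), Ankrd1 (306), Ankrd23 (80.1), Ccn2 (60.4), Rcan1 (28.02), Nppb (19.2), Gata4 (14.5), Mef2c (9.74) and Acta1 (4.88). Within a library, Myh7 stood above Ankrd1, Ankrd1 above Ankrd23, Ccn2 above Rcan1 and Gata4 above Mef2c in 10 of 10. The other neighbours changed places in 2 of the 10 libraries each, and their ranges overlapped: Myh6 and Myh7, Ankrd23 and Ccn2, Rcan1 and Nppb, Nppb and Gata4, and Mef2c and Acta1.

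**Figure D1:**
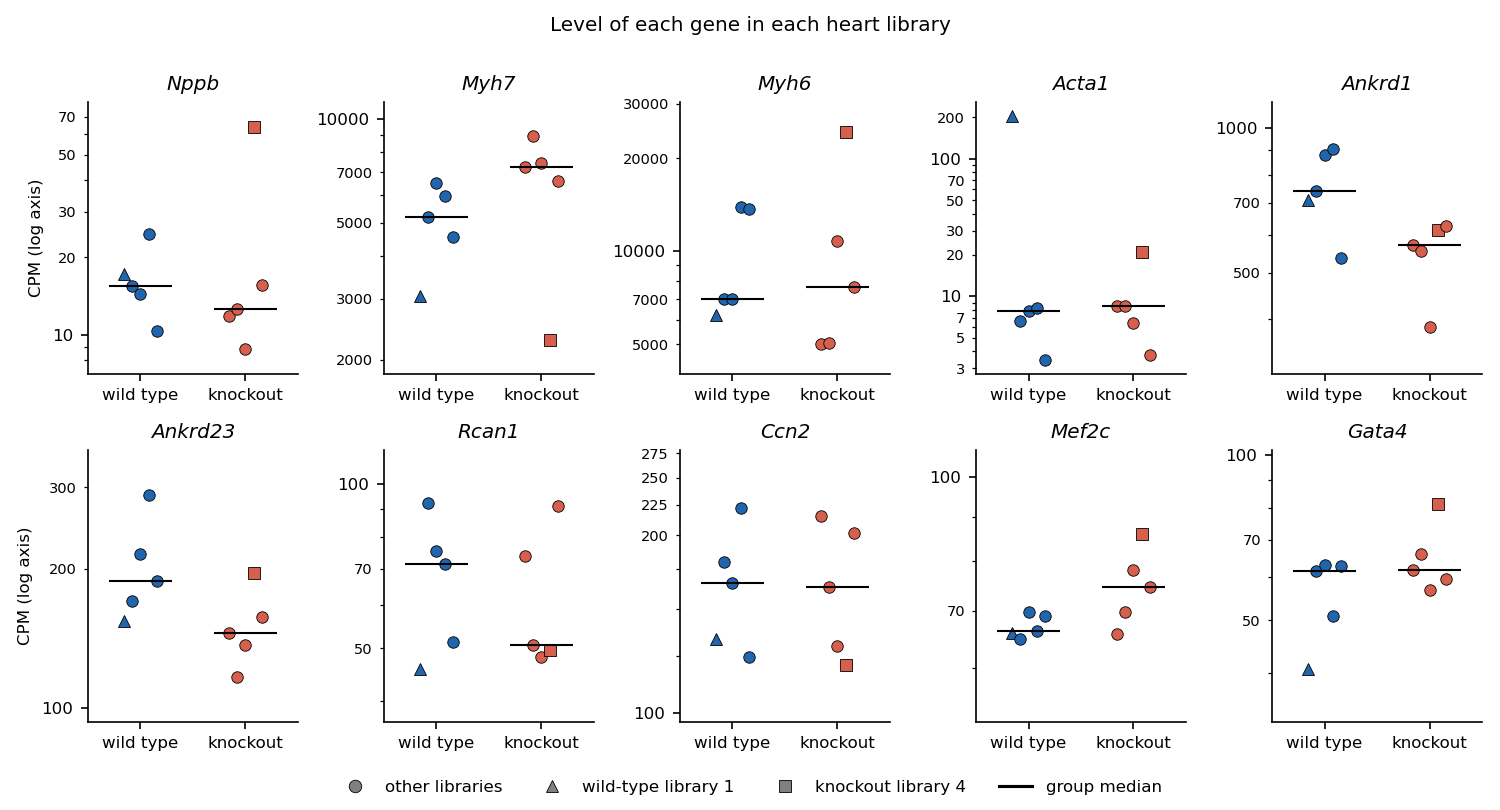
CPM of each of the 10 genes (log axes, 1 panel a gene) in the 5 wild-type-labelled (blue) and 5 knockout-labelled (red) libraries, with group medians as lines. Triangles mark wild-type-labelled library 1 and squares knockout-labelled library 4, which holds the highest Nppb, Myh6, Mef2c and Gata4 levels and the lowest Myh7 and Ccn2 levels.

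The spread between libraries of 1 genotype was wide for several of these genes. Knockout-labelled library 4 was the highest library for Nppb, Myh6, Mef2c and Gata4 and the lowest for Myh7 and Ccn2. It was thus at an end of the range for 6 of the 10 members, compared with 34.5% of all tested genes. Its values for members were known when it was set apart, so this count is a description. Library 1 labelled wild type was at an end for 3 members, compared with 50.3% of all tested genes. The SD of log2(CPM + 1) within groups was above that of 99.8% of 9959 genes with a mean of at least 5 CPM for Acta1, 99.1% for Nppb, 99.0% for Myh6 and 98.2% for Myh7. Mef2c was the steadiest member, above 19.7% of those genes.

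The myosin heavy chains came first among the members by level, and both varied widely between libraries. In knockout-labelled libraries 1 and 2 Myh7 was high and Myh6 low, and in knockout-labelled library 4 it was the other way round, while wild-type-labelled library 1 was the lowest of its group for both. Myh7 (chromosome 14, 55208141 to 55232084, minus strand, GRCm39) had 3050, 5189, 6508, 5965 and 4525 CPM in wild-type-labelled libraries 1 to 5 and 7241, 8944, 7436, 2273 and 6583 CPM in knockout-labelled libraries 1 to 5. Knockout-labelled library 4 was the lowest of all 10, and every other knockout-labelled library lay above every wild-type-labelled one. Over all 10 libraries the estimated log2 difference was 0.36 ± 0.33 SE with a 95% interval of -0.35 to 1.08 (edgeR quasi-likelihood test, adjusted p = 0.837). With libraries 1 and 4 left out the ranges were 6583 to 8944 CPM and 4525 to 6508 CPM and did not overlap, as 4.83% of 16494 genes did not. Since library 4 was the one knockout-labelled library that overlapped, this separation follows from leaving it out and is no test. The log2 fold change was then 0.45 with an interval of 0.18 to 0.72, and it did not pass over all genes (edgeR adjusted p = 0.263).

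Myh6 (chromosome 14, 55179367 to 55205887, minus strand) lies 2253 bases from Myh7. It had 6233, 7030, 6998, 13948 and 13683 CPM in the wild-type-labelled and 5021, 5038, 10782, 24290 and 7680 CPM in the knockout-labelled libraries. The groups overlapped, and the libraries with the most Myh6 were wild-type-labelled libraries 4 and 5 and knockout-labelled libraries 3 and 4. The log2 fold change was 0.14 ± 0.45 SE with an interval of -0.85 to 1.13 (edgeR adjusted p = 0.962), and without libraries 1 and 4 it was -0.54 with an interval of -1.39 to 0.31 (adjusted p = 0.766). In whole hearts, fewer muscle cells and less transcript per cell cannot be told apart.

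Expressed as a share of Myh6 plus Myh7 counts, Myh7 made up 32.9%, 42.5%, 48.2%, 30.0% and 24.9% in wild-type-labelled libraries 1 to 5. In the knockout-labelled libraries it made up 59.1%, 64.0%, 40.8%, 8.56% and 46.2%. Myh7 thus stood above Myh6 in knockout-labelled libraries 1 and 2 alone, and knockout-labelled library 4 had less than any other library. Group means were 35.7% ± 9.49 and 43.7% ± 21.8 (SD, n = 5 each). With libraries 1 and 4 left out they were 36.4% and 52.5%, with ranges of 24.9% to 48.2% and 40.8% to 64.0% that overlapped. The sum of both genes, from 9283 CPM in wild-type-labelled library 1 to 26564 CPM in knockout-labelled library 4, followed the ventricular marker sums at both ends. Of the 50-base stretches in the canonical Myh7 transcript, 22.6% are also in that of Myh6, so the division of reads between these genes rests in part on estimation.

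**Figure D2:**
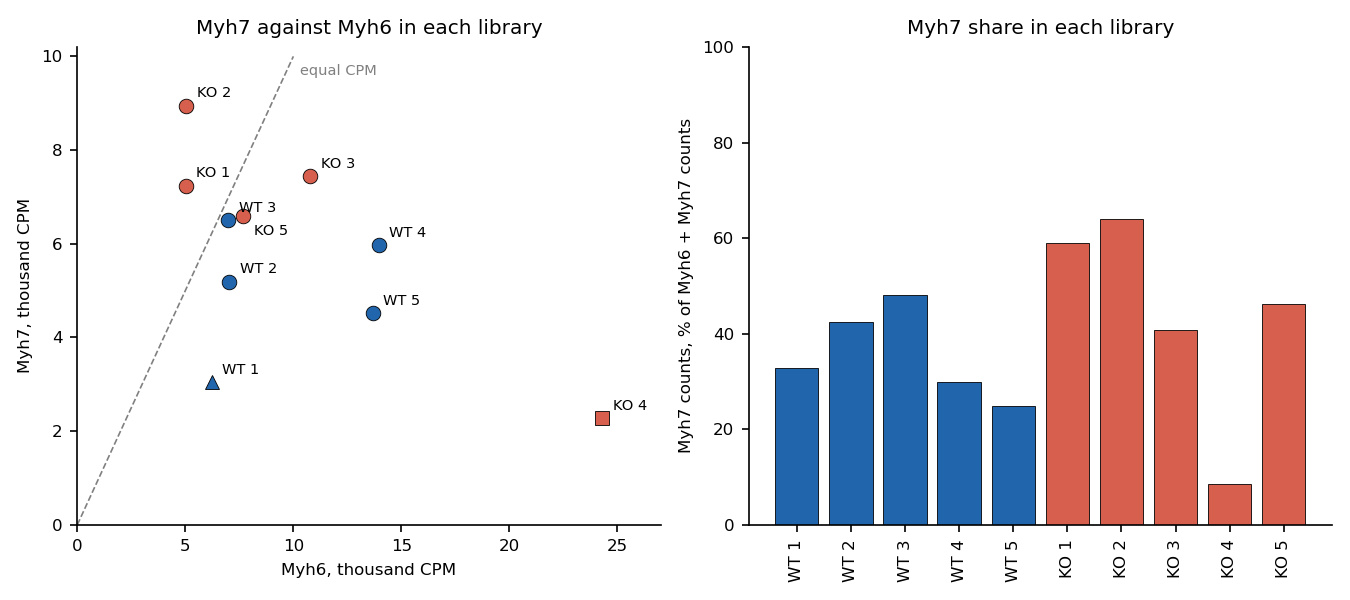
Left, Myh7 against Myh6 for each library, on axes in units of 1000 CPM (blue, wild-type-labelled; red, knockout-labelled; dashed line, equal CPM); right, Myh7 counts as a percent of Myh6 plus Myh7 counts. Knockout-labelled library 4 has 24290 CPM of Myh6 and a Myh7 share of 8.56%, and the other 9 libraries have shares of 24.9% to 64.0%.

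Each of these myosin genes hosts an intronic miRNA, which are shown because they share a seed (bases 2 to 8, in capitals) across the 2 host genes; the sequences are from RefSeq (GRCm38.p6).
mmu-miR-208a-3p, in Myh6: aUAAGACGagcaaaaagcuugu
mmu-miR-208b-3p, in Myh7: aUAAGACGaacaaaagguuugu
They differ at 3 of 22 bases, all outside the seed. The annotated precursors Mir208a and Mir208b were at 0 counts in all 10 libraries, and mature miRNAs were not measured. The antisense RNA Mhrt, whose gene spans 55205795 to 55229058 on the plus strand, lies across most of Myh7 and overlaps only the edge of Myh6. Mhrt was added after values were seen. It had 56.5, 49.7, 55.2, 116 and 103 CPM in the wild-type-labelled and 67.8, 80.4, 77.1, 206 and 77.2 CPM in the knockout-labelled libraries. Its highest value fell in knockout-labelled library 4, where Myh6 was highest, followed by wild-type-labelled libraries 4 and 5, which came next for Myh6 too. Mhrt counts were 1.57% of Myh7 counts, and since the strand setting of the counting is not given, reads of the 2 strands may be mixed. Its log2 fold change was 0.43 ± 0.36 SE (edgeR adjusted p = 0.824), and -0.09 without libraries 1 and 4.

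Nppb, the wall stress peptide (chromosome 4, 148069859 to 148071662, plus strand), had 17.3, 15.5, 14.4, 24.6 and 10.4 CPM in the wild-type-labelled libraries. The knockout-labelled libraries had 11.8, 12.6, 8.85, 63.8 and 15.6 CPM. A single library, knockout-labelled library 4, stood 2.59 times above the next highest of all 10, and the remaining 4 knockout-labelled libraries lay within or below the wild-type range. The log2 fold change of 0.46 ± 0.52 SE had an interval of -0.70 to 1.62 (edgeR adjusted p = 0.869). Without that library it turned to -0.42, and without libraries 1 and 4 it was -0.38 with an interval of -1.01 to 0.25 (adjusted p = 0.784). The sister gene Nppa, which encodes the atrial peptide and is also a fetal ventricular gene, had 630.0, 172, 47.9, 62.2 and 31.2 CPM in the wild-type-labelled libraries and 59.7, 51.1, 37.9, 125 and 53.0 CPM in the knockout-labelled ones. Within the knockout-labelled group Nppa was also highest in library 4. Its top values, in wild-type-labelled libraries 1 and 2, went with the 2 highest sums of an atrial marker list that holds Nppa itself, 1554 and 388 CPM against 94.8 to 183 CPM in the other 8, and the part of atrial tissue in them was not tested.

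Acta1, skeletal α-actin (chromosome 8, 124618501 to 124623661, minus strand), was the least abundant member per kilobase and the most uneven. Its CPM values were 206, 6.67, 7.86, 8.23 and 3.42 in the wild-type-labelled libraries and 8.50, 8.45, 6.43, 20.9 and 3.74 in the knockout-labelled ones. Library 1 labelled wild type was thus 9.86 times above the next highest library, knockout-labelled library 4, and the other 8 lay between 3.42 and 8.50 CPM. The log2 fold change of -2.28 ± 1.22 SE (edgeR adjusted p = 0.744, interval -5.04 to 0.48) turned to 0.57 without library 1 and was 0.06 without libraries 1 and 4 (interval -0.71 to 0.83, adjusted p = 0.976). Markers of fast skeletal muscle summed to 787 CPM in library 1 labelled wild type and to 21.02 to 35.3 CPM in the other 9, with the light chain gene Mylpf at 69.0 CPM against 0.559 to 1.49 CPM and the myosin gene Myh4 at 17.2 CPM against 0 to 4.54 CPM. The part of these markers in the Acta1 value was not tested. Cardiac α-actin, Actc1, was far more abundant, at 816 to 2057 CPM in 9 libraries and 4990 CPM in knockout-labelled library 4. Acta1 therefore made up 0.236% to 0.888% of Acta1 plus Actc1 counts in 9 libraries and 18.6% in library 1 labelled wild type.

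**Figure D3:**
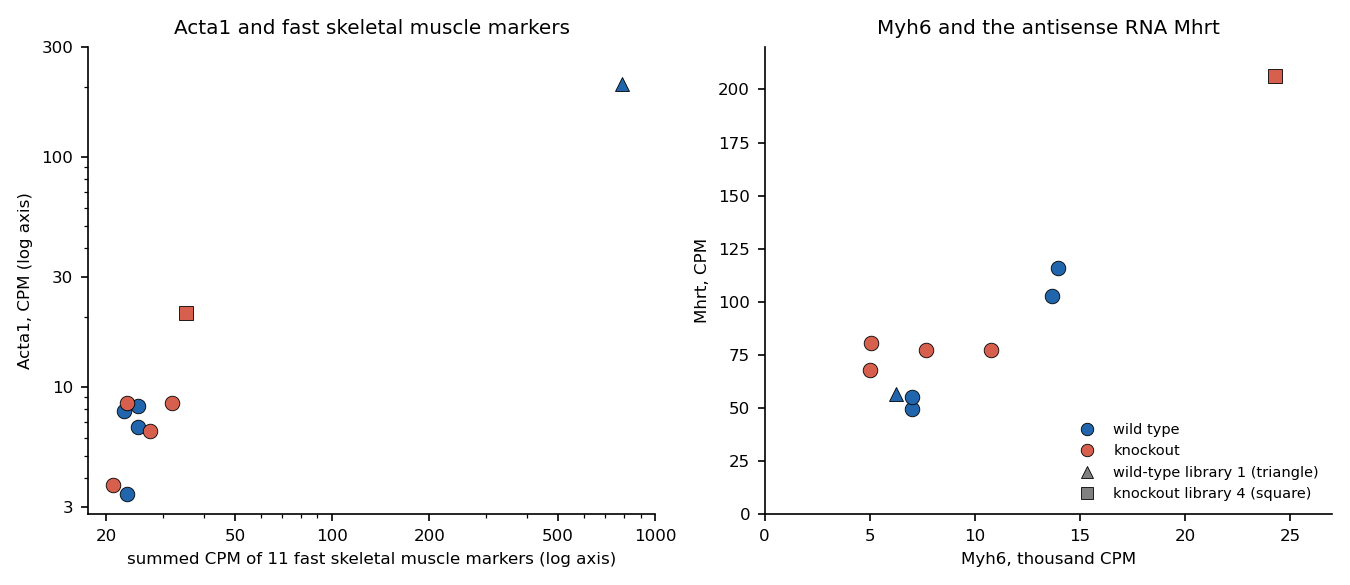
Left, Acta1 CPM against the summed CPM of 11 fast skeletal muscle markers, both on log axes; right, the antisense RNA Mhrt in CPM against Myh6 in units of 1000 CPM; each point is 1 library. Wild-type-labelled library 1 (triangle) stands alone in the left plot at 206 CPM of Acta1 and 787 CPM of markers, and knockout-labelled library 4 (square) stands alone in the right plot at 206 CPM of Mhrt.

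The stretch-responsive ankyrin repeat genes were the members with the smallest p over all 10 libraries, both lower in the knockout-labelled group, and neither passed the adjusted test. Ankrd1 (chromosome 19, 36089352 to 36097506, minus strand) had 709, 741, 878, 907 and 537 CPM in the wild-type-labelled and 571, 555, 385, 615 and 626 CPM in the knockout-labelled libraries. Only wild-type-labelled library 5 lay inside the knockout range. The log2 fold change was -0.46 ± 0.17 SE with an interval of -0.83 to -0.08 (edgeR unadjusted p = 0.0216, adjusted p = 0.666), and the exact two-sided permutation test of log2(CPM + 1) gave p = 0.0476, where 0.00794 is the smallest that 5 against 5 allows. With libraries 1 and 4 left out the value was -0.52 (edgeR adjusted p = 0.526).

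Ankrd23 (chromosome 1, 36563865 to 36575964, minus strand) had 155, 171, 215, 288 and 188 CPM in the wild-type-labelled and 145, 117, 137, 196 and 158 CPM in the knockout-labelled libraries. The overlap came from wild-type-labelled library 1 at the low end and knockout-labelled library 4 at the high end. Its log2 fold change was -0.44 ± 0.18 SE with an interval of -0.83 to -0.04 (edgeR unadjusted p = 0.0323, adjusted p = 0.699, exact permutation p = 0.0714). Without those libraries the ranges were 171 to 288 and 117 to 158 CPM and did not overlap, which again follows from leaving out the overlapping libraries, the log2 fold change was -0.63 with an interval of -0.97 to -0.29, and it did not pass over all genes (edgeR adjusted p = 0.211). Under each of the 19 other settings tried, both genes stayed lower, between -0.56 and -0.35 for Ankrd1 and between -0.63 and -0.28 for Ankrd23, and neither was called. Markers of mesothelium and epicardium moved the same way. Their 11 genes summed to 174 CPM in wild-type-labelled library 1 and 42.4 to 57.9 CPM in the rest of that group. In the knockout-labelled libraries the sum was 21.4 to 42.8 CPM. Of these genes 11 of 11 lay below 0. So did 11 of 11 macrophage, 9 of 10 fibroblast and 8 of 8 tested atrial markers. In contrast 10 of 10 ventricular markers, with Myh6 among them, lay above 0, against 46.6% of all tested genes. Endothelial and smooth muscle lists each had 7 of 10 above 0. Without libraries 1 and 4, 2 of 11 mesothelial and epicardial, 6 of 11 macrophage and 3 of 10 fibroblast markers lay above 0. Atrial and ventricular markers then had 2 of 8 and 2 of 10 above 0, and the ventricular median went from 0.14 to -0.14. Wild-type-labelled library 4, the highest for both ankyrin repeat genes, had 45.3 CPM of the mesothelial and epicardial markers. The part of any of these markers in the Ankrd1 and Ankrd23 values was not tested. Cnnm3, which overlaps the end of Ankrd23 on the other strand, had 9.08% as many counts and a log2 fold change of -0.02.

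Rcan1, the calcineurin inhibitor (chromosome 16, 92188840 to 92267755, minus strand), varied by 2.02 times between libraries without a difference between genotypes beyond that spread. Its values were 45.7, 92.4, 75.5, 71.5 and 51.4 CPM in the wild-type-labelled and 73.9, 50.6, 48.2, 49.5 and 91.1 CPM in the knockout-labelled libraries. The groups covered nearly the same range, and each had libraries at both ends of it. Its log2 fold change was -0.10 ± 0.23 SE with an interval of -0.61 to 0.41 (edgeR adjusted p = 0.946), and -0.14 with an interval of -0.74 to 0.47 without libraries 1 and 4 (adjusted p = 0.936). Rcan1 has separate starts, of which the inner one is known to respond to calcineurin and NFAT, and gene counts do not separate their transcripts.

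Ccn2, the matrix-associated growth factor (chromosome 10, 24471333 to 24474900, plus strand), had 133, 180, 166, 223 and 125 CPM in the wild-type-labelled libraries. In the knockout-labelled libraries it had 215, 163, 130, 121 and 202 CPM. The 2 sets of values covered the same range, with a log2 fold change of 0.01 ± 0.20 SE and an interval of -0.42 to 0.44 (edgeR adjusted p = 0.994). Without libraries 1 and 4 the value was 0.04 with an interval of -0.42 to 0.50 (edgeR adjusted p = 0.98). Fibroblast markers were highest in wild-type-labelled library 1, at 1751 CPM against 762 to 1053 CPM elsewhere, where Ccn2 was among the lower values.

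The transcription factor genes had the lowest SD of log2(CPM + 1) within groups among the 10 members, although by the ratio of the highest to the lowest library Ccn2 (1.84) lay below Gata4 (1.998). Mef2c (chromosome 13, 83652064 to 83815555, plus strand) had 66.0, 65.0, 69.7, 66.3 and 69.0 CPM in the wild-type-labelled and 65.8, 69.9, 78.0, 86.0 and 74.5 CPM in the knockout-labelled libraries. In 4 of the 5 knockout-labelled libraries it lay above every wild-type-labelled one. Its log2 fold change was 0.16 ± 0.08 SE with an interval of -0.01 to 0.32 (edgeR adjusted p = 0.724, exact permutation p = 0.0556), and 0.10 with an interval of -0.06 to 0.25 without libraries 1 and 4. Gata4 (chromosome 14, 63436362 to 63509141, minus strand) had 40.8, 61.5, 62.9, 50.9 and 62.7 CPM in the wild-type-labelled and 61.7, 65.8, 56.7, 81.5 and 59.3 CPM in the knockout-labelled libraries. The groups overlapped, and the extremes were again wild-type-labelled library 1 and knockout-labelled library 4. Its log2 fold change of 0.22 ± 0.14 SE (interval -0.07 to 0.52, edgeR adjusted p = 0.751) was 0.03 (interval -0.14 to 0.21) without those libraries. The noncoding gene Gm49390, which overlaps the start of Gata4 on the other strand, held 38.4% as many counts, so the Gata4 level is uncertain where strands were not separated.

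Across the 10 genes, 0 passed an adjusted p of 0.05 by edgeR, where 0.353% of all 16700 genes did (0.24% higher and 0.114% lower in the knockout-labelled group). DESeq2 and limma voom with quality weights also called 0, with 0.707% and 0.545% of all genes called, although DESeq2 gave no adjusted p for Nppb and Acta1. Before adjustment 2 of the 10, Ankrd1 and Ankrd23, had p under 0.05 by edgeR, both lower, where 6.86% of all genes did and 3.77% did so with lower values. By voom it was the same pair, and by DESeq2 Mef2c was added. The unadjusted share of all genes is not given here for voom or DESeq2, so their counts cannot be judged against it. In none of the 10 did all 5 libraries of a group lie above all 5 of the other, which held for 1.78% of all genes. With libraries 1 and 4 left out, Myh7, Ankrd1 and Ankrd23 had an unadjusted edgeR p under 0.05, where 7.80% of genes did. None was called, where 0.521% of genes were. Library 4 was left out with its values for members known, so these counts depend in part on the outcome and are a description. The median log2 fold change was 0.07 over the 10 genes, 6 of them above 0, and -0.01 over all tested genes. Without libraries 1 and 4 the median of the 10 turned to -0.05, with 5 above 0. None of the 10 lay on chromosome 17, where Mapk13 and 45 of the 59 called genes are located.

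**Figure D4:**
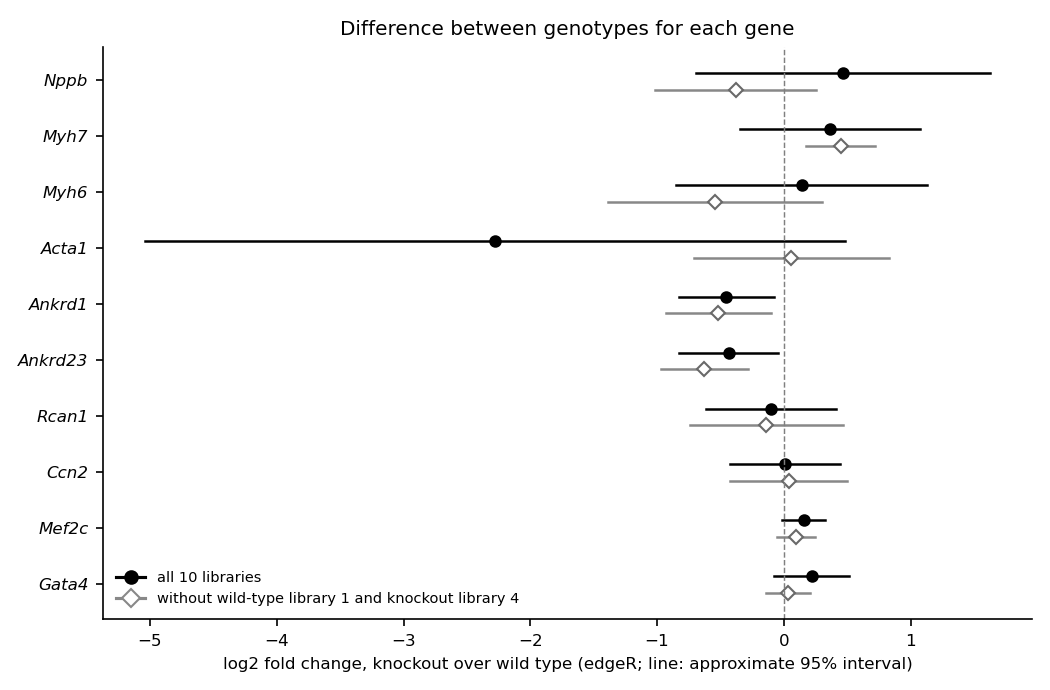
Log2 fold change of each gene, knockout-labelled over wild-type-labelled, with approximate 95% intervals from edgeR, for all 10 libraries (filled) and without wild-type-labelled library 1 and knockout-labelled library 4 (open). The Acta1 estimate moves from -2.28 to 0.06, Nppb and Myh6 change sign, and Ankrd1 and Ankrd23 lie below 0 in both.

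Whether members rose and fell together over libraries was examined for 8 pairs on log2(CPM + 1), with permutation tests of 100000 resamples and Benjamini-Hochberg adjustment over the 8. Myh7 and Nppb ran in opposite directions (Pearson r = -0.72, permutation p = 0.0235, adjusted 0.0969; Spearman rho = -0.60, permutation p = 0.0738, adjusted 0.195; n = 10). Without libraries 1 and 4, which lay farthest from the median Myh7 level, r was -0.17, so the relation rested on those libraries. Ankrd1 and Ankrd23 ran together (r = 0.70, permutation p = 0.0242, adjusted 0.0969; rho = 0.67, permutation p = 0.0390, adjusted 0.156). Their r was 0.52 without wild-type-labelled library 4 and knockout-labelled library 3, the farthest from the Ankrd1 median, and 0.51 after centring on group means. Ankrd1 and Nppb had r = 0.39 (permutation p = 0.259, adjusted 0.259) and rho = 0.70 (permutation p = 0.0304, adjusted 0.156), and Myh6 and Myh7 had r = -0.59 (permutation p = 0.0729, adjusted 0.182) and rho = -0.49 (permutation p = 0.155, adjusted 0.206). Ankrd1-Nppb fell to r = 0.08 and Myh6-Myh7 to r = -0.24 when the 2 farthest libraries of each were left out. Without libraries 1 and 4, the 2 that stood apart, r was 0.86 for Ankrd1-Nppb, 0.76 for Ankrd1-Ankrd23 and -0.61 for Myh6-Myh7 (n = 8). Library 4 was set apart with its high Nppb known, so these values are a description and no test. None of the 8 pairs passed after adjustment, by either coefficient.

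Among 9542 protein-coding genes with a mean of at least 5 CPM, those with a pattern over the 10 libraries most like Myh7 by Pearson correlation were Zfp1003 (0.96), Tinagl1 (0.95) and Gstm1 (0.95), the last a glutathione transferase gene. For Nppb they were Ifit1bl1 (0.95), Septin2 (0.95) and Tma16 (0.94), and for Ankrd1 they were Nelfa (0.92), Exosc2 (0.87) and Jkamp (0.87). After centring on group means the nearest were Atg13 (0.96) for Myh7, Tma16 (0.97) for Nppb and Wdr74 (0.93) for Ankrd1. These values come from the best matches among these genes over 10 shared libraries, including the 2 that stood apart, and carry no test.

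The pathways around these genes showed no called member. In 10 lists with 148 different genes, 141 were tested, 0 were called by edgeR in either direction, and 6 had an unadjusted p under 0.05, against 6.86% of all genes. DESeq2 called 2 of them, Myl7 and Myl4, which encode light chains of atrial myosin, lower (log2 fold changes of -7.56 and -5.85). Myl7 had 173 and 25.2 CPM in wild-type-labelled libraries 1 and 2 and at most 1.71 CPM in any other, so it moved with the atrial marker sums, which include both genes; the part of atrial tissue in this call was not tested.

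Of the 11 tested genes of the natriuretic peptide pathway, 4 lay above and 7 below 0, with a median log2 fold change of -0.08. Without libraries 1 and 4 the balance turned, with 6 of 11 above 0 and a median of 0.03. The clearance receptor gene Npr3 had 31.6 ± 15.6 CPM in the wild-type-labelled and 21.3 ± 2.73 CPM in the knockout-labelled libraries (SD, n = 5 each), but wild-type-labelled library 1 held 56.2 CPM against at most 38.04 CPM in the other 4, and its log2 fold change went from -0.57 to -0.29 without libraries 1 and 4. Npr2, the receptor for C-type peptide, had 38.7 ± 3.24 and 42.7 ± 2.51 CPM, and the peptide-degrading neprilysin gene Mme had 12.7 ± 3.84 and 9.69 ± 2.18 CPM, a log2 fold change of -0.39 that was -0.23 without those libraries. In the calcineurin and NFAT list, 10 of 16 genes lay above 0 with a median of 0.01 (8 of 16 and -0.0036 without libraries 1 and 4), and the calcineurin catalytic subunit gene Ppp3ca had 58.5 ± 2.35 against 53.7 ± 4.42 CPM. The class IIa histone deacetylase and MEF2 list had 12 of 14 genes above 0 (median 0.09; 9 of 14 and 0.08 without them), led by the calcium-regulated kinase gene Camk2b at 3.55 ± 0.75 against 4.53 ± 0.89 CPM, a log2 fold change of 0.36 that was 0.21 without them. Other cardiac transcription factor genes had 10 of 15 above 0 (median 0.06), which turned to 5 of 14 and a median of -0.02 without libraries 1 and 4. Among them Tbx20 had 114 ± 6.78 against 103 ± 4.90 CPM and Mef2d 134 ± 21.0 against 151 ± 12.8 CPM (log2 fold change 0.17, and 0.11 without those libraries), while Gata5, with an unadjusted edgeR p of 0.0266, was low in both groups at 0.80 ± 0.73 and 0.20 ± 0.18 CPM.

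For the regulators to which Ankrd1 and Ccn2 are known to respond, YAP, TEAD and the Hippo kinases, 10 of 19 genes lay above 0 with a median of 0.0048 (9 of 19 and -0.0041 without libraries 1 and 4). The Hippo kinase gene Stk3 had 9.13 ± 1.87 against 8.16 ± 0.40 CPM, a log2 fold change of -0.17 that was -0.05 without them. The TGF-β and CCN list had 4 of 16 above 0 (median -0.06), and 7 of 16 (median -0.02) without libraries 1 and 4. Its Ccn2 relative Ccn3 had 6.26 ± 4.94 against 3.40 ± 0.87 CPM, a gap set by wild-type-labelled library 1 at 15.0 CPM (3.42 to 5.04 CPM in the other 4), and its log2 fold change went from -0.89 to -0.16 without those libraries. In the titin-based stretch list 6 of 16 lay above 0 (median -0.03), and 3 of 16 (median -0.09) without them; Xirp1 had 187 ± 32.4 against 221 ± 25.4 CPM, a log2 fold change of 0.24 that became 0.07. Of the adult ventricular sarcomere genes 11 of 11 lay above 0 with all 10 libraries (median 0.05) and 0 of 11 without libraries 1 and 4 (median -0.23), and none was called either way. Not each of them peaked in knockout-labelled library 4: Tnnt2, cardiac troponin T, had 7349 CPM there and up to 9603 CPM in the wild-type-labelled group. Myl2, the ventricular light chain gene, was lowest in wild-type-labelled library 1 at 1268 CPM and highest in knockout-labelled library 4 at 5645 CPM.

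Other fetal or stress genes of the heart had 7 of 19 above 0 and a median of -0.21, which became 8 of 19 and -0.02 without libraries 1 and 4. Nmrk2, a nicotinamide riboside kinase gene, had 10.4 ± 2.96 against 15.9 ± 3.51 CPM (edgeR unadjusted p = 0.0115, adjusted p = 0.616), and its log2 fold change went from 0.61 to 0.36 without them. Known regulators of the myosin heavy chain genes had 8 of 12 above 0 (median 0.06), and 7 of 12 (median 0.02) without libraries 1 and 4. The thyroid hormone receptor gene Thra, whose product activates Myh6 and represses Myh7, had 57.0 ± 7.23 against 65.0 ± 2.72 CPM, with a log2 fold change of 0.19 that was 0.12 without them, and the nuclear corepressor gene Ncor1 had 136 ± 10.04 against 157 ± 6.96 CPM (edgeR unadjusted p = 0.0162, adjusted p = 0.642). Pura, which encodes a single-stranded DNA binding protein, had 25.0 ± 1.49 against 21.1 ± 2.82 CPM (edgeR unadjusted p = 0.0214, adjusted p = 0.665). Over all tested genes 46.6% lay above 0.

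**Figure D5:**
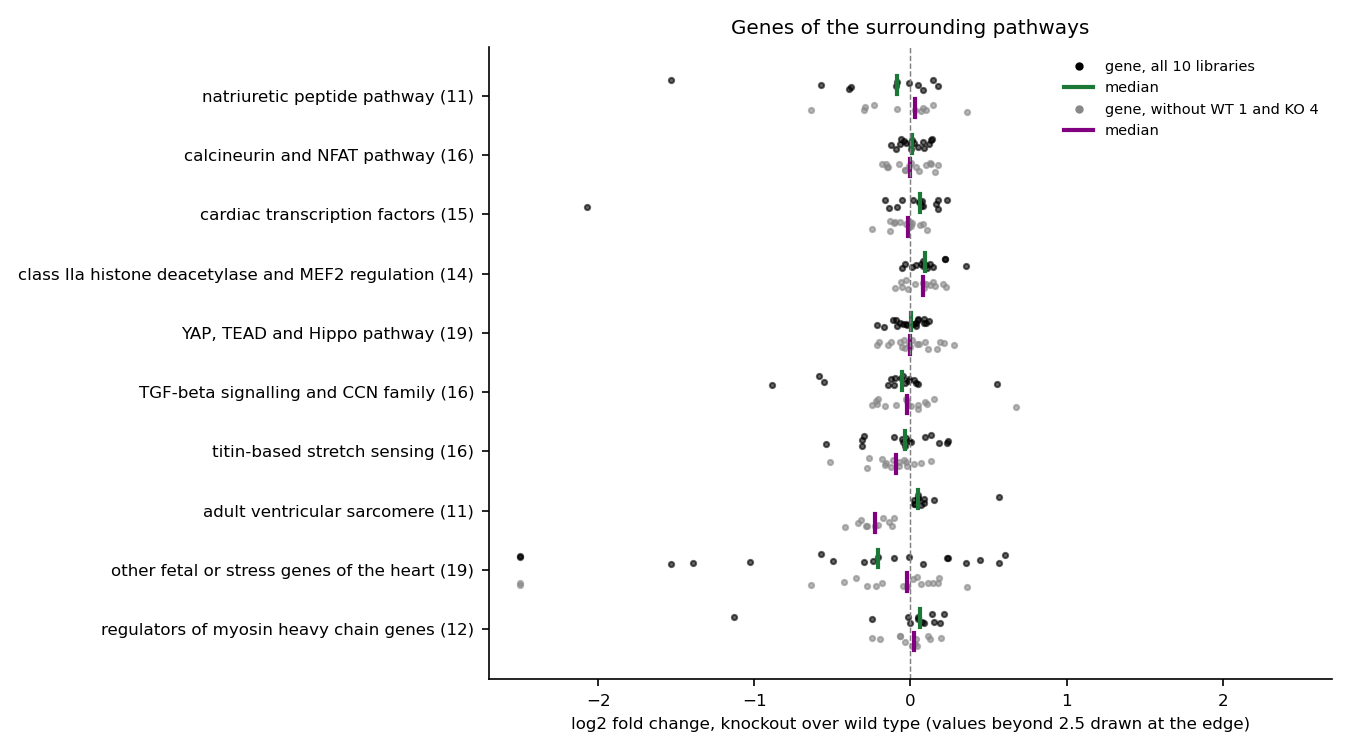
Log2 fold changes (knockout-labelled over wild-type-labelled) of the tested genes in 10 pathway lists, with the number tested in brackets; black points and green medians use all 10 libraries, grey points and purple medians leave out wild-type-labelled library 1 and knockout-labelled library 4. Most medians lie near 0, and the adult ventricular sarcomere median moves from 0.05 to -0.23.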

How the data were processed

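The authors deposited 1 table of expected counts per gene for 10 libraries, and its values were whole numbers. Hearts kept in RNAlater went to a commercial provider for library preparation and sequencing, and STAR 2.5.2 placed the reads on GRCm39, per the labels' protocols. RSEM 1.3.0 appears in the submitters' processing notes. For the annotation release, strand setting and trimming, the sources used here give nothing. Of the 78298 identifiers, 78168 matched GENCODE M39. RSEM divides shared reads by estimation, so near-identical, overlapping and antisense genes are uncertain. Groups came from the genotype label. The labels state no batch, and they do not say that libraries came from separate animals, so the spread behind each p-value may be technical. Titles of the wild-type-labelled libraries begin with DOXF and those of the knockout-labelled ones with S. Any handling that differed with these titles cannot be told apart from genotype. The knockout-labelled libraries are numbered here in the order of the samples. Of 20 pairs of libraries within a group, none agreed within sampling noise (chi-square per degree of freedom 9.47 to 179).

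The main test was edgeR 4.0.16 (quasi-likelihood, TMM, robust, no covariate) on the 16700 genes kept by its default filter at a minimum count of 10, with Benjamini-Hochberg adjustment and a threshold of 0.05. A standard error was taken as |log2 fold change| over the root of the F statistic, and approximate 95% intervals follow from it. Exact permutation tests used log2(CPM + 1). Alternatives were other scalings and filters, DESeq2 1.42.0, limma 3.58.1 voom with quality weights, leaving out mitochondrially encoded genes, and leaving out libraries. The procedure was tested on simulated data. Named genes were the 10 members, those most like 3 of them, and from each pathway list any called gene or else up to 3 with the smallest p. Cdkn1a, Actc1, Mhrt, Mir208a, Mir208b, Gm49390, Cnnm3, Mylpf, Myh4, Myl2, Tnnt2 and Nppa were added after values were seen. Levels per kilobase used GENCODE canonical transcripts. The members and lists were chosen with earlier results of these data known.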

Additional observations from a re-analysis of the deposited data

Results flagged for a closer look

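In groups of 5, a library was picked out when its gap to the nearest other library exceeded 0.71 of the group's range. Gaps were taken on values without logs. Chance passes this limit in about 1 of 20 groups of normally distributed values, and the distribution of these values was not tested. Of 24 groups looked at, 4 passed. The Acta1 share is taken from Acta1 counts, so the groups are not independent and 4 of 24 cannot be set against 1 of 20. Nppb in knockout-labelled library 4 was 63.8 CPM, with a gap of 0.878 of the range. Acta1 in the same library was 20.9 CPM (gap 0.723). Acta1 in wild-type-labelled library 1 was 206 CPM (gap 0.976), and the Acta1 share of Acta1 plus Actc1 counts there was 18.6% (gap 0.969). All 4 values lay on the high side, where values without logs have wider gaps, and in the 2 libraries that stood apart. Library 4 was set apart with its high Nppb known, so its place here is no separate result.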

How the results depend on the processing

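Across 19 alternative settings the 10 genes gave 190 values, and none passed the threshold where an adjusted p was given (lowest 0.211). Myh7, Ankrd1, Ankrd23, Mef2c and Gata4 kept their direction in each of them. The other 5 changed sign in 14 values. Nppb went from 0.46 to -0.089 with voom, -0.38 without libraries 1 and 4, and -0.42 to 0.67 when 1 library was left out. Myh6 went from 0.14 to -0.29, -0.54 and -0.43 to 0.32 under the same settings. Acta1 went from -2.28 to -0.017 with voom, was 0.061 without libraries 1 and 4, and -2.79 to 0.57 with 1 library left out. Rcan1 ranged from -0.27 to 0.040 and Ccn2 from -0.10 to 0.14 with 1 library left out, and Ccn2 was -0.073 with totals alone. Scaling by totals alone moved the median of all genes from -0.01 to -0.12. The number of genes called over the whole table was 59, and 118 with DESeq2, 91 with voom and 47 to 75 with 1 library left out; the cause was not tested. DESeq2 called 2 pathway genes where edgeR called 0. The difference in mean Myh7 share was 8.05 percentage points by counts and 8.02 per kilobase, and that of the Acta1 share -3.56 and -6.36. No paired analysis was possible because the knockout labels carry no replicate number that matches the wild-type ones. Depth was not limiting for the members, whose lowest count was 125.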
